A study of Mus musculus with 18 samples.

Results

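The genes of Wnt signalling were examined in skin and skin tumours of hairless mice, and the table held 49 of them among 14521 named genes. They were chosen by symbol, as every Wnt ligand, Frizzled receptor, Sfrp, Dkk and R-spondin in the table plus a list of further pathway components. The rule used no expression value, but earlier results of these data were known when it was set. The table itself holds no row with a highest deposited value under 57. The reference annotation holds 58 such symbols, and the 9 others (Dkk1, Dkk4, Notum, Rspo2, Rspo4, Wnt1, Wnt8a, Wnt8b and Wnt9b) were not analysed here. By role the 49 were 15 ligands, 12 receptors, 4 R-spondins or receptor-clearing ligases, 8 secreted antagonists, 6 intracellular transducers and 4 TCF/LEF factors. All 49 entered the tests, and 48 had a mean of at least 10 reads per library, the exception being Fzd9.

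The animals were 6 female littermates of the outbred hairless strain SKH-1E, which carries a defect of the Hairless gene and readily forms skin tumours under ultraviolet light. All were irradiated chronically with a solar simulator from adulthood. Each mouse gave non-lesional, chronically irradiated skin (CHR), 1 papilloma (PAP), a benign outgrowth of the epidermis, and 1 cutaneous squamous cell carcinoma (SCC). The groups therefore held n = 6 each from the same 6 animals (numbered 2, 3, 7, 8, 9 and 10), with no unirradiated skin for comparison. The tissues were collected when the animals were killed, after irradiation had ended.

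Wnt ligands are secreted lipid-modified proteins that bind Frizzled receptors, together with the co-receptors Lrp5 or Lrp6 in the canonical branch. This binding stops a destruction complex built on Axin and Apc from degrading beta-catenin, which then enters the nucleus and acts through TCF/LEF factors. In skin the pathway is known for the formation and cycling of hair follicles and for the maintenance of epidermal stem cells. Secreted antagonists of the Sfrp, Dkk and Wif families hold it back, and R-spondins raise it by keeping Frizzled receptors at the cell surface.

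The 18 libraries held 15.4 to 21 M recovered reads (median 18.9 M). Bulk tissue was sequenced, so fewer cells of a type and less RNA per cell cannot be told apart. Summed levels of cell type markers differed between the groups, with ranges that overlapped for some lists. The summed normalised count of 10 keratinocyte markers was 410900 to 805900 in CHR, 629500 to 1139000 in PAP and 211100 to 717600 in SCC. For 10 dermal fibroblast markers it was 141000 to 311000, 5499 to 162000 and 17980 to 498700 in the same order, and of these Mfap5 was at 0 in at least 1 library. For 10 skeletal muscle markers it was 386400 to 578900, 160.4 to 28960 and 383.9 to 196800, and Ckm, Myh1 and Myh2 were at 0 in at least 1 library. The median sums of endothelial markers were 7139 in CHR, 4904 in PAP and 6822 in SCC, those of smooth muscle and pericyte markers 13960, 4774 and 12100, and those of myeloid markers 42650, 5365 and 15490. The lowest fibroblast and muscle sums of both PAP and SCC were those of mouse 10, and the highest muscle sum of PAP was that of mouse 2. In PAP, mouse 10 also held the lowest of the 6 values for 24 of the 49 Wnt genes, and mouse 2 the highest for 22. The papillomas of mice 2 and 10 and the carcinoma of mouse 10 stood apart from their groups, and values without 1 of them are given for some of the calls that changed.

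Promoter sequence is shown for 3 genes that stand for different behaviours, namely Axin2, the feedback target whose level did not pass any test, Wnt3a, a ligand that rose in both lesions, and Fzd1, a receptor that fell in PAP. Each window holds the 250 bases before a transcription start of RefSeq (build GRCm38.p6), printed 5′ to 3′ on the strand of the gene, with matches to the motifs searched in capitals. The windows lie at chr11:108920099-108920348 on the plus strand (Axin2), chr11:59290752-59291001 on the minus strand (Wnt3a) and chr5:4758217-4758466 on the minus strand (Fzd1).
Axin2: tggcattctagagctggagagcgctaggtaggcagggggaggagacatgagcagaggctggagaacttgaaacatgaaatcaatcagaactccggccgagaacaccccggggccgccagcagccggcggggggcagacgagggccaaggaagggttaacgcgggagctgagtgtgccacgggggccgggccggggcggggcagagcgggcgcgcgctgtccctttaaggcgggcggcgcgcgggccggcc
Wnt3a: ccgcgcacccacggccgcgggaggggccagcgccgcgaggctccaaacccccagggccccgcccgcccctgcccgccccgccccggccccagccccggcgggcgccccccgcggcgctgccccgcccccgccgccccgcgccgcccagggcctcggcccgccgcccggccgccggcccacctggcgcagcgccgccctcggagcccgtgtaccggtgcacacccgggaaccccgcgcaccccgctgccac
Fzd1: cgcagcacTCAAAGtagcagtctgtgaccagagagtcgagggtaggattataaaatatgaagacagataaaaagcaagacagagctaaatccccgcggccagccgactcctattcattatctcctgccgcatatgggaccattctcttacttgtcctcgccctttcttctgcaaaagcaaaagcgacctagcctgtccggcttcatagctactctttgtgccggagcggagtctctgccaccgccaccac
The motifs were the TCF/LEF core CTTTGA and the AP-1 site TGANTCA, each on both strands, and matches of the 2 motifs did not overlap in these windows. Windows were found for 33 of the 49 genes, and 1 was used per gene, that of the start nearest the annotated gene start. The shares of all windows count every start of a gene, so the 2 kinds of share are not strictly alike. The TCF/LEF core occurred in 3 of the 33 (9.09%), those of Frzb, Fzd1 and Wnt11, compared with 13.8% of all 32841 promoter windows of this length. The AP-1 site occurred in 1 of the 33 (3.03%), that of Wnt5b, compared with 6.75% of all windows. The window of Fzd1 holds the core on its opposite strand, and those of Axin2 and Wnt3a hold neither string. A match is a description of letters, not evidence of a bound site.

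In the comparison of PAP with CHR, which asks how a benign lesion differs from the irradiated skin around it, most Wnt genes did not pass. Of the 15 ligands 4 rose (26.7%), close to the 22.8% of all genes. Of the 8 secreted antagonists 5 fell (62.5%), compared with 28.7% of all genes. With limma on log2 of the deposited score plus 1, 8 of the 49 Wnt genes (16.3%) were higher and 15 (30.6%) lower in PAP at an adjusted p under 0.05. Over all genes 22.8% were higher and 28.7% lower, together 51.5%, so the share of Wnt genes called was no larger than that of all genes. The median log2 fold change was -0.06 over the Wnt genes and 0.00 over all genes. In SCC vs CHR, 7 Wnt genes (14.3%) were higher and 9 (18.4%) lower, compared with 15.1% and 21.4% of all genes (36.5% in all). In SCC vs PAP, 1 was higher and 1 lower (2.04% each), compared with 4.99% and 0.592% of all genes (5.58% in all). PAP vs CHR and SCC vs CHR share the CHR libraries, so their calls are not independent. Wnt3a, Wnt4, Wnt7a and Wnt10a were called higher in both, and Dkk2, Fzd4, Fzd7, Rspo1, Sfrp4 and Sfrp5 lower in both. The share of all genes called in both was not computed, so this list is a description only.

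**Figure D1:**
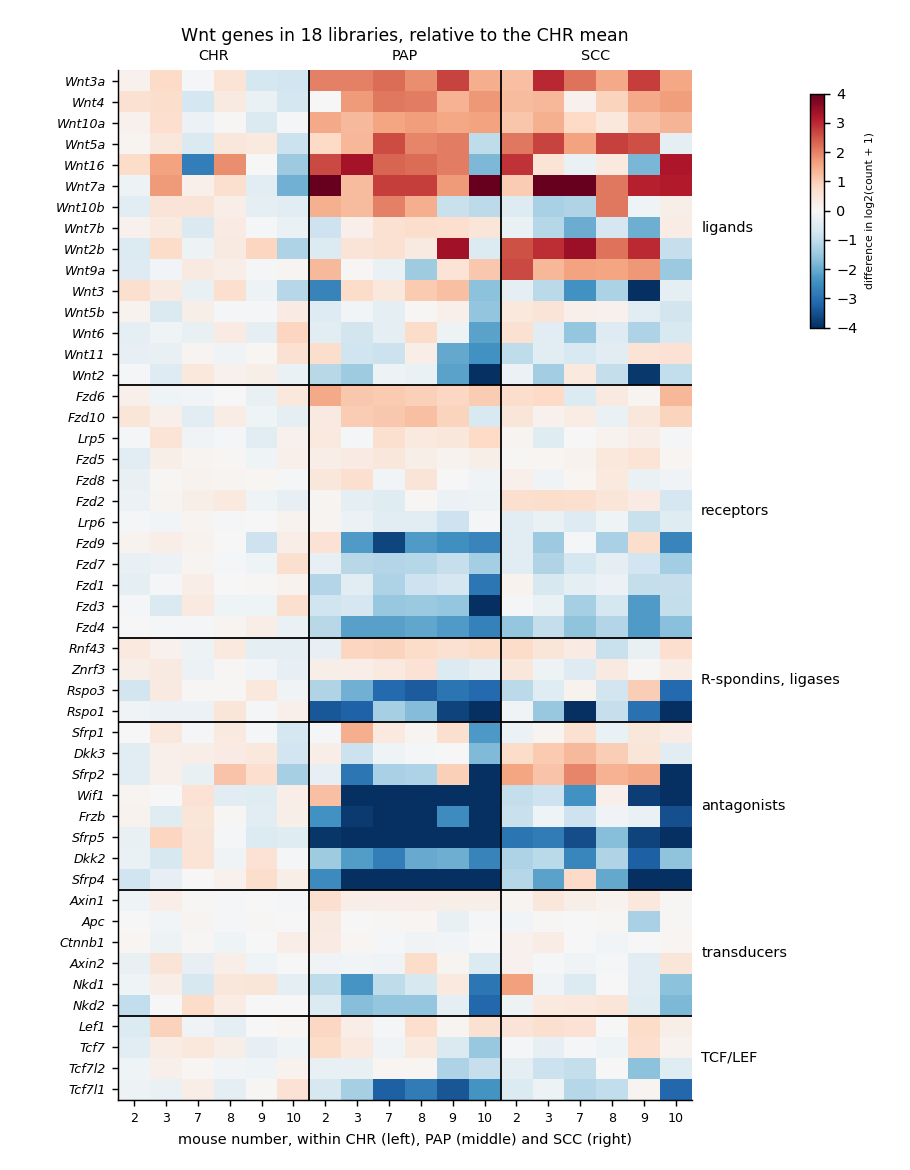
Each row is 1 of the 49 Wnt genes and each column 1 of the 18 libraries, and colour gives log2 of the normalised count plus 1 minus the mean of that gene in CHR, drawn at 4 or -4 where it lies beyond. Ligands such as Wnt3a, Wnt4 and Wnt10a are red in most papillomas and carcinomas. The antagonists Sfrp4, Sfrp5, Frzb and Wif1 are deep blue in most papillomas, and Ctnnb1, Apc and Axin2 are pale in most libraries.

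**Figure D2:**
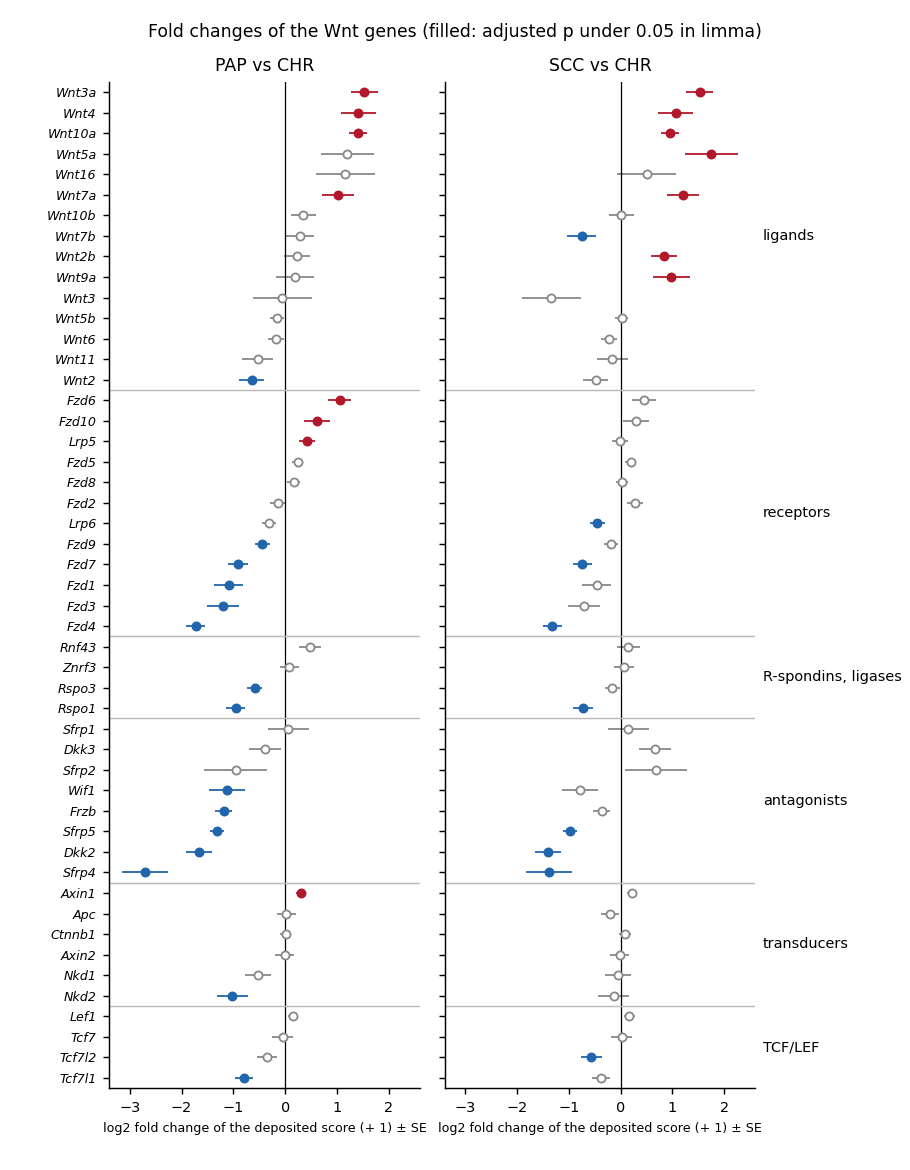
Points give the log2 fold change of the deposited score plus 1 with its SE (n = 6 per group) in PAP vs CHR (left) and SCC vs CHR (right), filled in red (higher) or blue (lower) where the adjusted p in limma was under 0.05. In PAP vs CHR 4 ligands (26.7%) are filled in red and 5 antagonists (62.5%) in blue, compared with 22.8% and 28.7% of all genes. In SCC vs CHR 7 ligands (46.7%) are filled in red and 3 antagonists (37.5%) in blue, compared with 15.1% and 21.4%.

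Of the 15 ligands, 4 rose, 1 fell and 10 did not pass the test in PAP vs CHR (median log2 fold change 0.28, compared with 0.00 over all genes), and 7 rose, 1 fell and 7 did not pass in SCC vs CHR (0.50, compared with -0.02). The shares of ligands higher were 26.7% in PAP and 46.7% in SCC, compared with 22.8% and 15.1% of all genes. Those that rose in PAP were Wnt3a, Wnt4, Wnt7a and Wnt10a, and in SCC these were joined by Wnt2b, Wnt5a and Wnt9a. Wnt2 fell in PAP, and Wnt7b fell in SCC compared with both other groups. No ligand was higher in SCC than in PAP by the test.

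Wnt3a (ENSMUSG00000009900.7, GRCm38 chromosome 11, 59248033 to 59290752), a classical activator of beta-catenin signalling, had normalised read counts of 60.8 to 177 in CHR (median 108), 282 to 682 in PAP (422) and 241 to 840 in SCC (384). All 12 lesions lay above all 6 CHR samples, and the papillomas and carcinomas overlapped. Its log2 fold change was 1.53 ± 0.26 (SE) in PAP (adjusted p = 0.000101) and 1.53 ± 0.26 in SCC (adjusted p = 0.000238), higher in 6 of 6 mice in both, and the mean counts were 4-fold and 4.26-fold those of CHR. Between SCC and PAP the difference was -0.00 ± 0.26, with SCC higher in 3 of 6 mice.

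Wnt10a (ENSMUSG00000026167.14, chromosome 1, 74791516 to 74804179), an epidermal ligand known for its role in hair follicles, teeth and sweat glands, had counts of 345 to 822 in CHR (median 519), 1272 to 1659 in PAP (1528) and 696 to 1394 in SCC (1138). The papillomas were close to each other and all above CHR, whereas the lowest carcinoma, that of mouse 8, fell within the range of CHR. The log2 fold change was 1.40 ± 0.17 in PAP (adjusted p = 3.37e-06) and 0.95 ± 0.17 in SCC (adjusted p = 0.000376), higher in 6 of 6 mice in each. SCC vs PAP gave -0.46 ± 0.17 (adjusted p = 0.115), lower in 5 of 6 mice.

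Wnt4 (ENSMUSG00000036856.4, chromosome 4, 137277489 to 137299726), expressed in epidermal keratinocytes and best known from kidney and gonad development, had counts of 525 to 1411 in CHR (median 915), 844 to 3697 in PAP (2837) and 971 to 2745 in SCC (2105). The papilloma of mouse 2, at 844, was the only one within the range of CHR, and the other papillomas reached at least 2248. Wnt4 rose by 1.41 ± 0.34 on the log2 scale in PAP (adjusted p = 0.00205), higher in 5 of 6 mice, and by 1.06 ± 0.34 in SCC (adjusted p = 0.0197), higher in 6 of 6. The call in SCC was lost without mouse 9 (adjusted p = 0.0922) and without mouse 10 (adjusted p = 0.0958).

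Wnt5a (ENSMUSG00000021994.15, chromosome 14, 28504750 to 28527448), the main ligand of the non-canonical branch, had counts of 271 to 673 in CHR (median 583), 243 to 2989 in PAP (1550) and 373 to 3265 in SCC (2508). Mouse 10 held the lowest value of all 3 groups, its papilloma (243) was below every CHR sample and its carcinoma (373) within their range, and the lesions of the other mice were above it. In SCC the log2 fold change was 1.75 ± 0.51 (adjusted p = 0.013), higher in 6 of 6 mice, and the mean count was 4.28-fold that of CHR. In PAP it was 1.20 ± 0.51 (adjusted p = 0.0594), higher in 5 of 6 mice. With the mouse as replicate block the PAP value passed (adjusted p = 0.00657), as it did without mouse 10 (1.46, adjusted p = 0.000957) and without its papilloma alone (1.61, adjusted p = 0.0072).

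**Figure D3:**
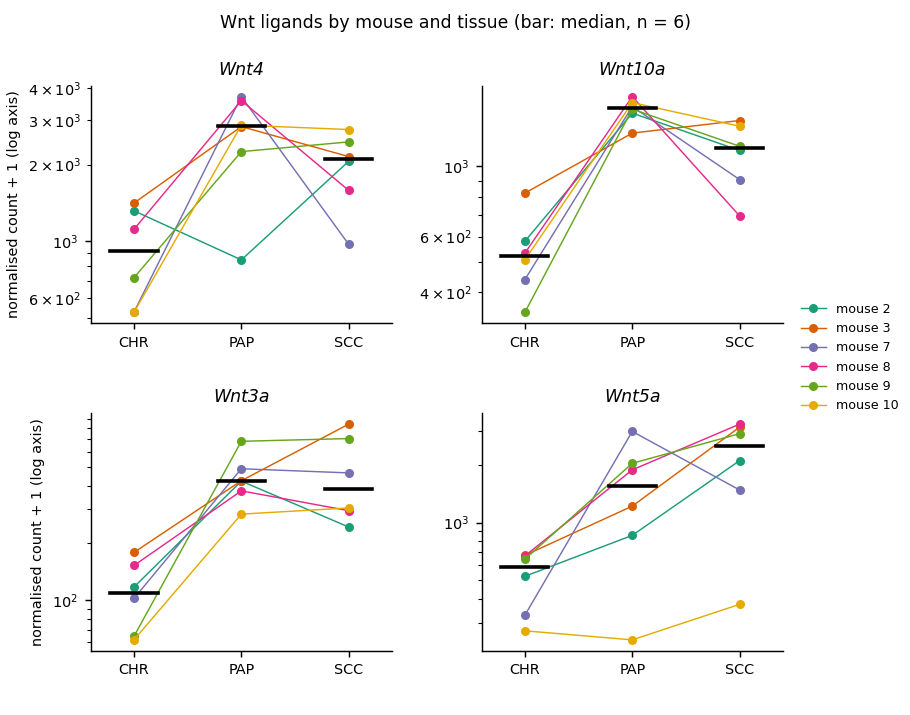
Normalised read counts plus 1 on a log axis of Wnt4, Wnt10a, Wnt3a and Wnt5a in CHR, PAP and SCC, with 1 coloured line per mouse and a black bar at the median of 6. The lines of Wnt10a and Wnt3a rise from CHR to PAP in every mouse, the papilloma of mouse 2 is low for Wnt4 (844), and the lesions of mouse 10 are low for Wnt5a (243 and 373).

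Wnt7a, a ligand with few reads in skin, went from a median of 6.72 in CHR to 50.9 in PAP and 65.8 in SCC. Its log2 fold change on the score, which compresses low counts, was 1.02 ± 0.31 in PAP (adjusted p = 0.0109) and 1.20 ± 0.31 in SCC (adjusted p = 0.00614), and limma-voom on recovered reads gave 2.96 and 3.24. Without mouse 10 the PAP call was lost (adjusted p = 0.0647). The groups overlapped only through the CHR sample of mouse 3, at 24, which exceeded the lowest lesions.

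Wnt2b had a median of 8.49 in CHR, 10.9 in PAP and 58.6 in SCC, and was higher in SCC than in CHR in 6 of 6 mice (0.83 ± 0.25, adjusted p = 0.0164, limma-voom 2.20). The carcinoma of mouse 10, with 3.63, was far below the others, which were at 38.8 to 93.2. Wnt9a, with medians of 108, 135 and 328, was higher in SCC than in CHR in 5 of 6 mice (0.98 ± 0.36, adjusted p = 0.0408), and the exception was again mouse 10 with 37.9. Both calls were marginal, since leaving out mouse 2, 3 or 7 gave adjusted p of 0.0506, 0.0545 and 0.0729 for Wnt2b and 0.144, 0.107 and 0.0885 for Wnt9a. Without mouse 8 and without mouse 9 the adjusted p of Wnt9a was 0.0741 and 0.132, and with the mouse as block it was 0.0558.

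Wnt7b, a canonical ligand of the epidermis, was the only ligand lower in SCC than in both other groups, with medians of 458 in CHR, 644 in PAP and 237 in SCC. It fell by 1.02 ± 0.28 on the log2 scale from PAP to SCC (log2 fold change -1.02, adjusted p = 0.0449) and differed by -0.75 ± 0.28 from CHR (adjusted p = 0.0481), lower in 5 of 6 mice in each. Neither call held without mouse 3, 7, 8 or 9, with adjusted p of 0.125 to 0.243 in SCC vs PAP and 0.088 to 0.166 in SCC vs CHR, and with the block the latter was 0.0628. Without the papilloma of mouse 10 the adjusted p was 0.0971 and 0.0515. Wnt2, made mainly by mesenchymal cells, fell in PAP (-0.65 ± 0.24, adjusted p = 0.031, lower in 6 of 6 mice, limma-voom -1.72), from a median of 69 to 27.2, and its call was lost without mouse 2, 3, 9 or 10 (adjusted p of 0.0554 to 0.0952) and without the papilloma of mouse 10 alone (0.0814). The ligands that passed no comparison were Wnt3, Wnt5b, Wnt6, Wnt10b, Wnt11 and Wnt16. Among them Wnt16 ranged from 16.4 to 594 in PAP and Wnt3 from 7.26 to 462 in SCC. Without the papilloma of mouse 2, Wnt11 was lower in PAP (-0.75, adjusted p = 0.0312) and Wnt3 lower in SCC than in CHR (-1.34, adjusted p = 0.0454), and without the papilloma of mouse 10 Wnt16 was higher in PAP (1.57, adjusted p = 0.0198).

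Per kilobase of exon, which allows levels of different genes to be compared, the summed level of the 15 ligands was 742 to 1360 in CHR (median 1020), 1480 to 2680 in PAP (2300) and 1310 to 2170 in SCC (1920). The papilloma sums did not overlap those of CHR. Wnt10a and Wnt4 held the largest shares of the ligand sum in all 3 groups. In CHR they took 21.4 ± 4.33% and 20.9 ± 3.99% (mean ± SD, n = 6), with Wnt3 at 19.6 ± 4.63%, and these 3 did not differ beyond their spread. In PAP, Wnt10a took 29 ± 7.27% and Wnt4 28.3 ± 8.9%, followed by Wnt3 with 10.4 ± 6.59%. In SCC, Wnt4 took 25.9 ± 5.83%, Wnt10a 24.7 ± 3.9% and Wnt5a 15.9 ± 7.99%, and Wnt3 had 4.57 ± 2.94%. Shares add up to a whole, so a rise of one lowers the others.

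Of the 12 receptors, 3 rose, 5 fell and 4 did not pass in PAP vs CHR (median log2 fold change -0.22), and none rose, 3 fell and 9 did not pass in SCC vs CHR (-0.10). The shares called were 66.7% and 25%, compared with 51.5% and 36.5% of all genes. Fzd6, Fzd10 and Lrp5 rose in PAP, and Fzd1, Fzd3, Fzd4, Fzd7 and Fzd9 fell. In SCC vs CHR, Fzd4, Fzd7 and Lrp6 fell. No receptor passed the test between SCC and PAP. For 5 of the 12 the unadjusted p was under 0.05, a share that was not computed over all genes.

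Fzd4 (ENSMUSG00000049791.4, chromosome 7, 89404355 to 89413134), a receptor known for its role in blood vessels, had counts of 644 to 936 in CHR (median 770), 120 to 359 in PAP (173) and 162 to 405 in SCC (260). Every lesion was below every CHR sample. For endothelial markers the median sum was also lower in PAP (4904, compared with 7139 in CHR), whereas carcinomas had 6822, within the range of CHR. The part of these markers in the result was not tested. The log2 fold change was -1.73 ± 0.18 in PAP (adjusted p = 7.55e-07) and -1.32 ± 0.18 in SCC (adjusted p = 3.51e-05), lower in 6 of 6 mice in both. The highest papilloma was that of mouse 2, with 359, and the others were at 120 to 185. Without it, SCC vs PAP passed (0.56, adjusted p = 0.0373), compared with 0.41 ± 0.18 and an adjusted p of 0.183 with all libraries.

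Fzd6 (ENSMUSG00000022297.15, chromosome 15, 39006034 to 39038188), a receptor of the planar polarity branch that orients hair follicles, had counts of 1944 to 3225 in CHR (median 2294), 4279 to 6917 in PAP (4922) and 1631 to 6035 in SCC (3503). All papillomas exceeded all CHR samples, while the carcinomas spread across the range of both. It rose by 1.05 ± 0.23 in PAP (adjusted p = 0.000963), higher in 6 of 6 mice, and SCC vs CHR gave 0.45 ± 0.23 (adjusted p = 0.134). Without mouse 7, SCC vs CHR passed (0.62, adjusted p = 0.0339), and without mouse 10 SCC vs PAP passed (-0.79, adjusted p = 0.0203). Per kilobase Fzd6 was the most abundant of the 12 receptors in each group, with 24.3 ± 3.1% of their sum in CHR, 44.9 ± 4.4% in PAP and 35.6 ± 10.4% in SCC.

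Fzd1 (ENSMUSG00000044674.6, chromosome 5, 4753839 to 4758035) had counts of 1135 to 1820 in CHR (median 1532), 200 to 1105 in PAP (760) and 768 to 1668 in SCC (1060). Fzd3 (ENSMUSG00000007989.7, chromosome 14, 65192449 to 65262463), known for axon guidance, had 246 to 573 (340), 17.9 to 230 (129) and 75.4 to 360 (208). Neither overlapped between CHR and PAP, both did between CHR and SCC, and the papilloma of mouse 10 was the lowest library of each. Fzd1 fell by 1.09 ± 0.28 on the log2 scale in PAP (log2 fold change -1.09, adjusted p = 0.00307) and Fzd3 by 1.20 ± 0.31 (-1.20, adjusted p = 0.00331), lower in 6 of 6 mice. In SCC vs CHR the values were -0.46 ± 0.28 (adjusted p = 0.198) and -0.71 ± 0.31 (adjusted p = 0.0761). Without the papilloma of mouse 10, the PAP values of Fzd1 and Fzd3 were -0.81 (adjusted p = 0.00195) and -0.93 (adjusted p = 0.00554), and both genes passed in SCC vs CHR (adjusted p = 0.0473 and 0.0253).

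Fzd7 fell in both lesions, by a log2 fold change of -0.91 ± 0.19 in PAP (adjusted p = 0.00063) and -0.74 ± 0.19 in SCC (adjusted p = 0.00546), and lesions of neither group overlapped CHR. Lrp6, the co-receptor of canonical signalling, was lower in SCC than in CHR in 6 of 6 mice (-0.45 ± 0.14, adjusted p = 0.0196), a call lost without mouse 7 or 10 (adjusted p = 0.0697 and 0.0558), and without the papilloma of mouse 2 it was also lower in PAP (-0.39, adjusted p = 0.0241). Lrp5, its relative, was higher in PAP (0.42 ± 0.16, adjusted p = 0.0397) in 5 of 6 mice, but not with the mouse as block (adjusted p = 0.0689), without the papilloma of mouse 2 (0.0529) or of mouse 10 (0.0931), or without any 1 of mice 2, 7, 8, 9 or 10 (adjusted p of 0.0947 to 0.15). Fzd10, higher in PAP by 0.61 ± 0.25 (adjusted p = 0.0474), also lost its call with the block (0.0766) and without mouse 3, 7, 8 or 9 (0.0965 to 0.205). Fzd9, with medians of 12.9 in CHR and 1.48 in PAP, was lower by -0.44 ± 0.14 (adjusted p = 0.0174, limma-voom -2.37), a call lost without mouse 3, 7 or 8 (0.0556 to 0.0801). Fzd2, Fzd5 and Fzd8 passed no comparison. Without the carcinoma of mouse 10, Fzd2 was higher in SCC than in CHR (0.43, adjusted p = 0.00909).

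Of the R-spondins and the ligases Rnf43 and Znrf3, which remove Frizzled receptors from the membrane, 2 of 4 fell and none rose in PAP, and 1 fell in SCC. Both that fell were R-spondins, which oppose those ligases. The shares called were 50% in PAP and 25% in SCC, compared with 51.5% and 36.5% of all genes. Rspo1 (ENSMUSG00000028871.7, chromosome 4, 124986430 to 125009099) had counts of 36.2 to 60.8 in CHR (median 39.6), 0 to 16.4 in PAP (3.41) and 1.03 to 38.8 in SCC (9.44). No papilloma reached the CHR range, and of the carcinomas that of mouse 2, with 38.8, did. Rspo1 differed by -0.96 ± 0.19 in PAP (adjusted p = 0.000408) and -0.73 ± 0.19 in SCC (adjusted p = 0.00578) on the score, and by -3.37 and -2.59 in limma-voom. It was lower in 6 of 6 mice in PAP and in 5 of 6 in SCC, mouse 2 having 38.8 in both CHR and SCC.

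Rspo3 (ENSMUSG00000019880.10, chromosome 10, 29452416 to 29535867) had counts of 9.66 to 22.4 in CHR (median 17.2), 0.766 to 6.69 in PAP (1.17) and 1.03 to 33.7 in SCC (10.6). CHR and PAP did not overlap, and the carcinomas covered the range of both. It fell in PAP by -0.59 ± 0.14 on the score (adjusted p = 0.00161) and by -2.86 in limma-voom, in 6 of 6 mice. SCC vs PAP gave 0.43 ± 0.14 (adjusted p = 0.0675), higher in 5 of 6 mice, and passed without the carcinoma of mouse 10 (0.54, adjusted p = 0.0051) and without the papilloma of mouse 2 (0.49, adjusted p = 0.0462). Rnf43 and Znrf3 passed no comparison, with log2 fold changes in PAP of 0.48 ± 0.22 (adjusted p = 0.0731) and 0.08 ± 0.19 (adjusted p = 0.731). Without the papilloma of mouse 2, Rnf43 was higher in PAP (0.63, adjusted p = 0.0166).

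Of the 8 secreted antagonists, 5 fell and none rose in PAP vs CHR (median log2 fold change -1.15, compared with 0.00 over all genes), 3 fell and none rose in SCC vs CHR (-0.58), and 1 rose in SCC vs PAP (0.58). The shares that fell were 62.5% in PAP and 37.5% in SCC, compared with 28.7% and 21.4% of all genes. Per kilobase of exon, the 8 antagonists summed to 767 to 1470 in CHR (median 1280). The sums were 215 to 1250 in PAP (975) and 797 to 2120 in SCC (1480), and the 3 ranges overlapped. Dkk3 and Sfrp1, which passed no comparison, held mean shares of 35% and 31.2% of the sum in CHR. Sfrp4, Sfrp5, Frzb, Dkk2 and Wif1 fell in PAP, and of these Sfrp4, Sfrp5 and Dkk2 also fell in SCC. The median sum of fibroblast markers also went from 216600 in CHR to 56270 in PAP. That of muscle markers went from 449500 to 708.3 and that of adipocyte markers from 27600 to 5473. Among carcinomas the fibroblast median reached 231100, above that of CHR, whereas the muscle and adipocyte medians of 109300 and 12170 stayed below CHR. The part of these markers in the fall of antagonists and R-spondins was not tested for either lesion.

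Sfrp4 (ENSMUSG00000021319.7, chromosome 13, 19623104 to 19632994), a decoy receptor that binds Wnt proteins, had counts of 144 to 404 in CHR (median 268), 0 to 42.2 in PAP (0.383) and 0 to 424 in SCC (57.6). It was nearly absent from 5 papillomas, which held at most 1.64, and the papilloma of mouse 2 held 42.2. The carcinomas ranged from 0 in mouse 10 to 424 in mouse 7, above every CHR sample. Sfrp4 differed by -2.71 ± 0.44 in PAP (adjusted p = 6.22e-05), lower in 6 of 6 mice, and by -1.39 ± 0.44 in SCC (adjusted p = 0.0191), lower in 5 of 6. In limma-voom the values were -7.18 and -3.14. The call in SCC was lost without mouse 3, 8, 9 or 10 (adjusted p = 0.0524, 0.0619, 0.109 and 0.0753). Sfrp4 passed in SCC vs PAP without the papilloma of mouse 2 (1.54, adjusted p = 0.043), compared with 1.32 ± 0.44 and an adjusted p of 0.0773 with all libraries.

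Sfrp5 (ENSMUSG00000018822.7, chromosome 19, 42197971 to 42202252), of the same family, had counts of 25.5 to 69.9 in CHR (median 33.7), 0 to 1.64 in PAP (0) and 0 to 10.9 in SCC (3.23). Only 2 reads were recovered in all papillomas together, both in mouse 2, against 243 in CHR, a ratio of 0.00814 (95% exact interval 0.00098 to 0.0297, which covers counting error only). Neither lesion overlapped CHR. Its log2 fold change on the score was -1.32 ± 0.13 in PAP (adjusted p = 4.97e-07) and -0.98 ± 0.13 in SCC (adjusted p = 3.07e-05), lower in 6 of 6 mice, and -5.87 and -3.64 in limma-voom.

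Frzb (ENSMUSG00000027004.3, chromosome 2, 80411970 to 80447625), also named Sfrp3 and likewise a Wnt-binding decoy, had counts of 37.1 to 73.6 in CHR (median 56.3), 0 to 9.04 in PAP (2.38) and 3.63 to 47.4 in SCC (36.3). Every papilloma was below every CHR sample, 5 carcinomas were at 27.9 to 47.4, and that of mouse 10 had 3.63. Frzb fell by -1.19 ± 0.17 in PAP (adjusted p = 1.66e-05, limma-voom -4.10) and rose by 0.82 ± 0.17 from PAP to SCC (adjusted p = 0.0231, limma-voom 3.10), higher in 6 of 6 mice. The rise was not called in limma-voom (adjusted p = 0.102), when PAP and SCC alone were fitted (0.123), without mouse 3, 7 or 8 (0.116, 0.164 and 0.189), or without the papilloma of mouse 10 (0.74, adjusted p = 0.0557).

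Dkk2 (ENSMUSG00000028031.6, chromosome 3, 132085292 to 132180304), which binds the Lrp co-receptors and is known from the dermis of the footpad, had counts of 318 to 751 in CHR (median 470), 72.7 to 185 in PAP (114) and 51.8 to 236 in SCC (190). Every lesion was below every CHR sample. The log2 fold change was -1.67 ± 0.25 in PAP (adjusted p = 2.43e-05) and -1.41 ± 0.25 in SCC (adjusted p = 0.000305), lower in 6 of 6 mice in both.

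**Figure D4:**
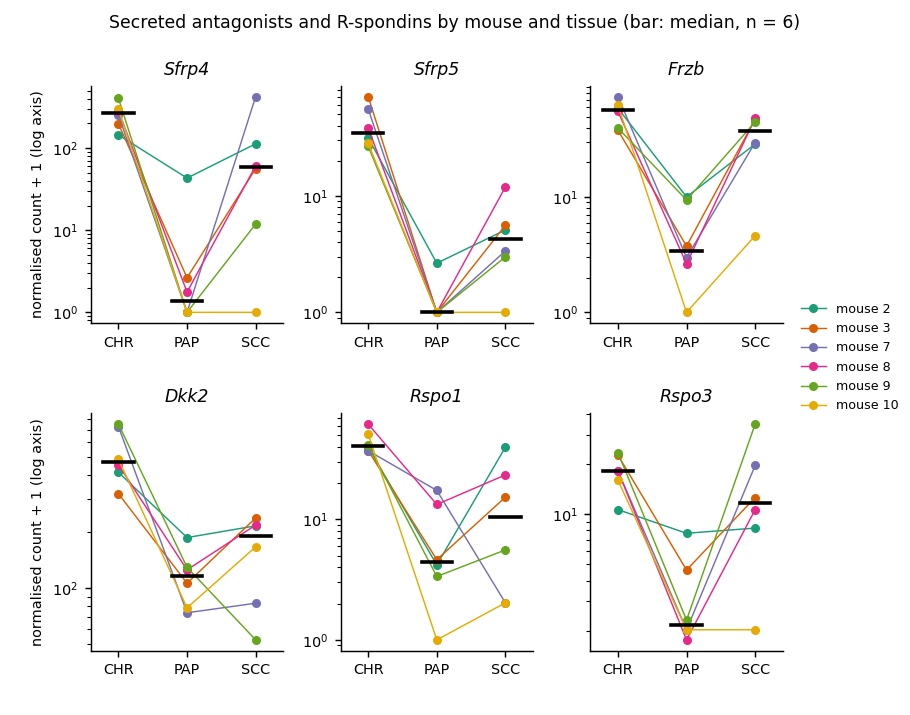
Normalised read counts plus 1 on a log axis of 4 secreted antagonists and 2 R-spondins in CHR, PAP and SCC, with 1 coloured line per mouse and a black bar at the median of 6. In PAP the medians are 0.383 for Sfrp4, 0 for Sfrp5 and 2.38 for Frzb, the papilloma of mouse 2 is the highest of each, and the carcinoma of mouse 10 stays at 0 for Sfrp4 and Sfrp5 and at 3.63 for Frzb.

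Wif1, which sequesters Wnt ligands, had a median of 64.4 in CHR, 1.17 in PAP and 21.5 in SCC. It was lower in PAP in 5 of 6 mice (-1.12 ± 0.35, adjusted p = 0.0135, limma-voom -4.28), and the papilloma of mouse 2, with 144, was above every CHR sample. This call was lost without mouse 7 (adjusted p = 0.0662), and SCC vs CHR gave -0.79 ± 0.35 (adjusted p = 0.0896), which passed in limma-voom (-2.50, adjusted p = 0.0384) and without the papilloma of mouse 2 (-0.79, adjusted p = 0.013).

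The remaining antagonists Dkk3, Sfrp1 and Sfrp2 passed no comparison, but Dkk3 and Sfrp2 depended on the fit. Dkk3, a divergent member of its family, had medians of 1609 in CHR, 1259 in PAP and 2504 in SCC, and was higher in SCC than in both other tissues in 6 of 6 mice. Its adjusted p was 0.0565 in SCC vs PAP (1.05 ± 0.31) and 0.106 in SCC vs CHR (0.66 ± 0.31), and with the mouse as block 0.0106 and 0.0188. Sfrp2, which fibroblasts express strongly, had medians of 238, 99.3 and 665, and was higher in SCC than in PAP in 6 of 6 mice (1.64 ± 0.60, adjusted p = 0.108, with the block 0.0194). In PAP vs CHR its difference was -0.96 ± 0.60 (adjusted p = 0.191, with the block 0.0464). Without the carcinoma of mouse 10 both were higher in SCC than in CHR, Dkk3 by 0.87 (adjusted p = 0.0289) and Sfrp2 by 1.25 (adjusted p = 0.0404). Fibroblast markers followed the same course, with a median sum of 216600 in CHR, 56270 in PAP and 231100 in SCC, and their part in the result was not tested.

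Of the 6 intracellular transducers, Axin1 rose and Nkd2 fell in PAP, and none passed in the other 2 comparisons. The share called in PAP vs CHR was 33.3%, compared with 51.5% of all genes. Over all genes 36.5% were called in SCC vs CHR and 5.58% in SCC vs PAP. Ctnnb1 (ENSMUSG00000006932.17, chromosome 9, 120929216 to 120960507), which encodes beta-catenin, had counts of 14724 to 20713 in CHR (median 17242), 15439 to 21534 in PAP (16500) and 15740 to 21133 in SCC (17672). The 3 groups overlapped almost wholly. The log2 fold change was 0.01 ± 0.11 in PAP (adjusted p = 0.954) and 0.08 ± 0.11 in SCC (adjusted p = 0.62).

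Axin2 (ENSMUSG00000000142.15, chromosome 11, 108920349 to 108950783), a scaffold of the destruction complex whose transcription beta-catenin induces and which is widely read as a gauge of canonical signalling, had counts of 389 to 693 in CHR (median 461), 332 to 817 in PAP (447) and 354 to 678 in SCC (458). The groups overlapped almost wholly, and the animals with the highest value were mouse 3 in CHR, mouse 8 in PAP and mouse 10 in SCC. Its differences were -0.01 ± 0.18 in PAP (adjusted p = 0.967), higher in 4 of 6 mice, and -0.02 ± 0.18 in SCC (adjusted p = 0.955), higher in 3 of 6. Other targets of the same feedback passed no comparison either, with adjusted p in PAP vs CHR of 0.0875 for Nkd1 (-0.52 ± 0.25) and 0.731 for Znrf3 (0.08 ± 0.19). Nkd1 passed in limma-voom (-1.33, adjusted p = 0.0495) and with PAP and CHR alone (adjusted p = 0.0405).

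Nkd2 (ENSMUSG00000021567.15, chromosome 13, 73818534 to 73847631), which binds Dishevelled, had counts of 139 to 456 in CHR (median 275), 30.4 to 211 in PAP (93.2) and 78.2 to 387 in SCC (301). The papillomas overlapped CHR, and mouse 10 held the lowest value in both lesions. It fell by 1.02 ± 0.30 in PAP (log2 fold change -1.02, adjusted p = 0.00906), lower in 5 of 6 mice, and SCC vs PAP gave 0.89 ± 0.30 (adjusted p = 0.085), which passed without the carcinoma of mouse 10 (1.11, adjusted p = 0.00773).

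Axin1 (ENSMUSG00000024182.16, chromosome 17, 26138688 to 26195811), the constitutive scaffold of the destruction complex, had counts of 957 to 1295 in CHR (median 1065), 1273 to 1704 in PAP (1303) and 1121 to 1480 in SCC (1233). The papillomas of 5 mice were at 1273 to 1309 and that of mouse 2 was at 1704. It rose by 0.30 ± 0.10 in PAP (adjusted p = 0.0178), higher in 6 of 6 mice, a call lost without mouse 2 (0.21, adjusted p = 0.0958) and without mouse 8 (adjusted p = 0.0514). Apc passed no comparison, with a log2 fold change of 0.02 ± 0.18 in PAP and -0.21 ± 0.18 in SCC.

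**Figure D5:**
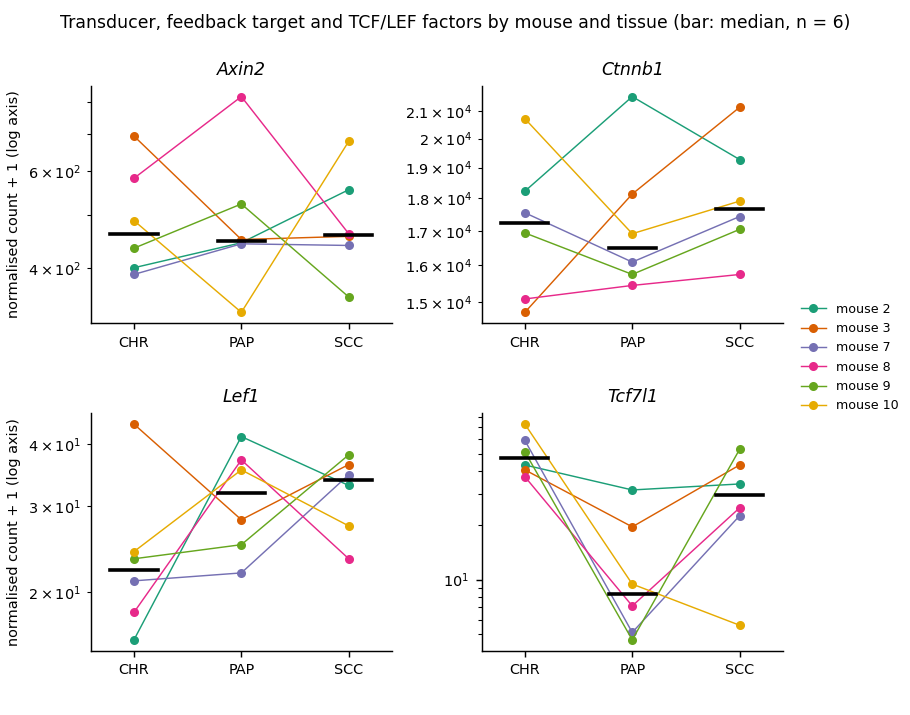
Normalised read counts plus 1 on a log axis of Axin2, Ctnnb1, Lef1 and Tcf7l1 in CHR, PAP and SCC, with 1 coloured line per mouse and a black bar at the median of 6. The axes differ in range, the medians of Axin2 are 461, 447 and 458 in the 3 tissues, and Tcf7l1 is lower in PAP (median 7.29) than in CHR (46.1) in every mouse.

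Among the TCF/LEF factors, which carry beta-catenin to DNA, Tcf7l1 fell in PAP and Tcf7l2 fell in SCC, and Lef1 and Tcf7 passed no comparison. The share of the 4 factors called was 25% in PAP and 25% in SCC, compared with 51.5% and 36.5% of all genes. Tcf7l1 (ENSMUSG00000055799.13, chromosome 6, 72626378 to 72789254), also named Tcf3 and known as a repressor in hair follicle stem cells, had counts of 36.2 to 71.8 in CHR (median 46.1), 3.63 to 30.4 in PAP (7.29) and 4.58 to 51.8 in SCC (28.4). No papilloma reached the CHR range, and the highest was that of mouse 2. The difference was -0.80 ± 0.17 in PAP (adjusted p = 0.000791, limma-voom -2.33), lower in 6 of 6 mice, and -0.38 ± 0.17 in SCC (adjusted p = 0.0922).

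Tcf7l2 (ENSMUSG00000024985.19, chromosome 19, 55741820 to 55933654), also named Tcf4, had counts of 339 to 434 in CHR (median 375), 160 to 397 in PAP (305) and 121 to 380 in SCC (239). The carcinoma of mouse 8, with 380, was the only one within the CHR range. It fell in SCC (-0.57 ± 0.20, adjusted p = 0.0305), lower in 5 of 6 mice, a call lost without mouse 3, 7, 9 or 10 (adjusted p of 0.0542 to 0.112). Lef1 (ENSMUSG00000027985.14, chromosome 3, 131110471 to 131224356), itself a target of the pathway, was low in all groups, with 15 to 43 in CHR (median 21.3), 20.9 to 40.5 in PAP (30.8) and 22.4 to 37.1 in SCC (32.9). Its log2 fold change was 0.15 ± 0.10 in PAP (adjusted p = 0.227) and 0.17 ± 0.10 in SCC (adjusted p = 0.212), higher in 5 of 6 mice in each. Per kilobase Tcf7 held the largest mean share of the sum of the 4 factors in each group, with 46.9 ± 5.75% in CHR, 55.1 ± 9.9% in PAP and 57.5 ± 9.32% in SCC. Tcf7l2 followed with 39.2 ± 3.42%, 37.5 ± 9.12% and 30.5 ± 10.6%, and its range overlapped that of Tcf7 in CHR (34.5 to 43.6% and 39.9 to 53.8%) and in PAP (26.3 to 48.7% and 38.2 to 64.4%) but not in SCC (12.2 to 44.4% and 46.8 to 72.4%).

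Between papilloma and carcinoma, which asks what further changes accompany malignancy, only Frzb (higher) and Wnt7b (lower) passed among the 49. At an unadjusted p under 0.05 there were 18. The share of all genes at that unadjusted threshold was not computed, so such counts are descriptions only. The median log2 fold change was 0.17 over the Wnt genes and -0.02 over all genes. The carcinoma of mouse 10 bore on this comparison. Without it 13 Wnt genes passed (26.5%), while over all genes the share went from 5.58% to 16.9%, and those gained were Dkk3, Fzd2, Fzd6, Nkd2, Rspo3, Sfrp2, Sfrp4, Sfrp5, Tcf7l1, Wnt2b and Wnt9a, of which only Fzd6 was lower in SCC. The summed fibroblast markers of this carcinoma were 17980 against 122100 to 498700 in the other carcinomas, its muscle markers 383.9 against 73440 to 196800, and their part in the result was not tested. Without mouse 3, 7 or 8, or without the papilloma of mouse 10, no gene of the whole table passed in limma, and 12, 7, 11 and 16 Wnt genes had an unadjusted p under 0.05.

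In the mixed model of progression, with the mouse as random effect and an unadjusted p under 0.05, 15 of the 49 Wnt genes (30.6%) were early (different from CHR in both PAP and SCC, in the same direction), compared with 41.1% of all genes. These were Axin1, Dkk2, Fzd4, Fzd6, Fzd7, Lrp6, Rspo1, Sfrp4, Sfrp5, Wnt2, Wnt3a, Wnt4, Wnt5a, Wnt7a and Wnt10a. The late genes, changed in SCC from both other tissues, were the 3 genes Dkk3, Wnt2b and Wnt7b (6.12%, compared with 2.2% of all genes). Without mouse 10 they numbered 7, and without mouse 3 or mouse 7 they numbered 1. The shares of all genes without these mice were not computed. None of the 49 Wnt genes was stepwise, compared with 0.523% of all genes. Without mouse 7, 1 gene was stepwise. Tcf7l2 and Wnt9a differed between SCC and CHR but fell in no class, and 29 did not differ there.

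Of 77 further pathway genes listed by name, 68 were in the table, and 15 rose and 18 fell in PAP vs CHR, 7 rose and 9 fell in SCC vs CHR, and 2 rose and none fell in SCC vs PAP. The shares called were 48.5%, 23.5% and 2.94%, compared with 51.5%, 36.5% and 5.58% of all genes. Among 10 frequent targets of beta-catenin in this further list, 5 rose in PAP (50%, compared with 22.8% of all genes) and 2 fell (20%, compared with 28.7%). These exclude the targets Axin2, Lef1, Nkd1, Rnf43, Tcf7 and Znrf3, which were counted among the Wnt genes above. None of those was called in PAP vs CHR, so the 50% does not hold for the targets as a whole. Fosl1, an AP-1 subunit, rose from a median of 30.4 to 353 in PAP (log2 fold change 2.06 ± 0.24, adjusted p = 2.41e-06) and 233 in SCC (1.49 ± 0.24, adjusted p = 0.000162). Ccnd1, the G1 cyclin D1, rose from 2123 to 5826 in PAP (1.51 ± 0.18, adjusted p = 2.49e-06) and 5098 in SCC (1.39 ± 0.18, adjusted p = 1.79e-05). In both genes every lesion exceeded every CHR sample. Lgr5, an R-spondin receptor of hair follicle stem cells and itself a target, fell in PAP (-1.48 ± 0.39, adjusted p = 0.00404), from a median of 184 to 40.2, and its relative Lgr6 fell in PAP (-1.09 ± 0.30, adjusted p = 0.00594) and in SCC (limma-voom -2.45, adjusted p = 0.0249), the latter not without mouse 3 in limma on the score (adjusted p = 0.0693).

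Of 11 other receptors, 2 rose (18.2%) and 5 fell (45.5%) in PAP, compared with the same 22.8% and 28.7%. Ptk7, a receptor-like protein of planar polarity, rose in PAP (0.96 ± 0.26, adjusted p = 0.00505) and SCC (1.18 ± 0.26, adjusted p = 0.00191), higher in 6 of 6 mice. The glypicans Gpc6 (-1.84 ± 0.36, adjusted p = 0.000363) and Gpc3 (-1.64 ± 0.42, adjusted p = 0.00353), cell surface proteoglycans that bind Wnt proteins, fell in PAP, as did Pygo1 (-1.24 ± 0.29, adjusted p = 0.00154), a nuclear partner of beta-catenin. Ctnnbip1, an inhibitor of the contact between beta-catenin and TCF, fell in PAP (-0.97 ± 0.22, adjusted p = 0.00141) and SCC (-1.19 ± 0.22, adjusted p = 0.000521). The inhibitor Draxin fell in PAP (-1.08 ± 0.37, adjusted p = 0.0201), a call lost without mouse 3 or 8 (adjusted p = 0.0699 and 0.0859) and without the papilloma of mouse 10 (adjusted p = 0.05). With the mouse as block, Gpc6, Gpc3 and Draxin rose from PAP to SCC (1.20, 1.33 and 1.19, adjusted p = 0.0296, 0.0235 and 0.0155), which they did not without it (adjusted p = 0.0558, 0.0675 and 0.0629). Igfbp4, which binds insulin-like growth factors and inhibits Wnt receptors, and Prickle1, of the planar polarity pathway, fell in PAP (-1.22 ± 0.45 and -0.67 ± 0.25, adjusted p = 0.031 and 0.0351) and were the 2 that rose from PAP to SCC (1.83 ± 0.45 and 0.94 ± 0.25, adjusted p = 0.033 and 0.042). Without mouse 3, 7 or 8, or without the papilloma of mouse 10, none of these 4 calls of Igfbp4 and Prickle1 held.

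Among the 116 other Wnt and pathway genes, those whose log2 score followed Axin2 most closely over the 18 libraries were Wnt6 (Pearson r = 0.63), Wnt16 (0.60), Porcn (0.60), Tnik (0.59) and Celsr2 (0.57). The points are 3 tissues of 6 mice and share animals and depth, so this is a description only. The strandedness of the counting is not given in the sources used here, so reads of a gene and of an overlapping antisense gene cannot be told apart.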

How the data were processed

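Per the study's methods, the authors aligned paired-end reads to mm10, and per the labels counted them with HTSeq. The deposited values are an expression score, scaled and variance-stabilized by the authors (minimum 39, smallest row maximum 57), and are not counts. The annotation release and strandedness are not given in the sources used here. Of 14542 rows, 21 with a number for a symbol (at most 0.236% of a library's total) were left out. Inverting the transformation (39.13 for 0 reads, size factors 0.834 to 1.18) gave whole reads exactly for 98.3% of values. Normalised read counts are these reads over the size factor. The 18 libraries held 15.4 to 21 M recovered reads each.

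A count model had been planned for raw counts. As the values are a transformed score, the stated fallback was used, limma 3.58.1 (R 4.3.3) on log2(score + 1) over all 18 libraries, grouped by sample title, with 1 coefficient per group and without covariates. P-values (two-sided) were adjusted by Benjamini-Hochberg across the 14521 named genes, with a threshold of 0.05. This scale understates fold changes of low genes, so limma-voom on recovered reads is given beside them. Progression classes used a mixed model per gene with mouse as random effect, checked against nlme 3.1.168. The fits were tested on simulated data. Positions and exon lengths came from GENCODE M21 (GRCm38).

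Same-numbered samples came from the same mouse, and their deviations from the group means correlated at over 0.1 in 4 of 6 pairs for PAP and CHR, 2 of 6 for SCC and PAP and 3 of 6 for SCC and CHR. The replicate block (mouse) was an alternative, printed where it changed a call. The main fit had no mouse term and did not use this pairing. Its p-values measure the spread between libraries within a group, each from another mouse.

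The genes and lists were chosen with earlier results of these data known. Full values were given for up to 4 genes per role, those with the largest log2 fold change among genes with an adjusted p under 0.05 and a mean of at least 10 reads in a group, plus Ctnnb1, Axin2 and Lef1, and up to 12 further pathway genes were named by the same ranking. Genes outside this rule that are named for a change under another setting were chosen after their values were seen. Alternatives were limma-voom, log2 of the recovered normalised count plus 1, no pseudocount, a mean of at least 10 reads, the block, the 2 compared groups only and leaving out each mouse. Leaving out the carcinoma of mouse 10, the papilloma of mouse 2 or the papilloma of mouse 10 was added after seeing the data.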

Additional observations from a re-analysis of the deposited data

Results flagged for a closer look

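In 63 groups of 6 libraries, formed by the 21 genes described in full, 10 groups held a library far from the other 5, with a gap to the nearest library, relative to the group's range, above Dixon's critical value. Chance gives this in about 1 in 20 normal, independent groups, and these groups are not independent, since the genes share the same libraries. Of the 10, 6 were the papilloma of mouse 2. That library was low for Wnt4 (844 normalised reads, others 2248 to 3697) and high for Fzd4 (359, others 120 to 185), Fzd6 (6917, others 4279 to 5054), Axin1 (1704, others 1273 to 1309), Sfrp4 (42.2, others 0 to 1.64) and Sfrp5 (1.64, others 0, which rests on 2 reads). Its summed skeletal muscle markers were also the highest of the papillomas, with 28960, and their part in the result was not tested.

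The papilloma of mouse 10 was low for Fzd3 (17.9, others 127 to 230) and Fzd1 (200, others 640 to 1105), and the carcinoma of mouse 10 for Frzb (3.63, others 27.9 to 47.4). Both libraries had the lowest summed fibroblast markers of their groups (5499 and 17980), and their part in the result was not tested. The CHR sample of mouse 3 was high for Lef1 (43, others 15 to 23.2).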

How the results depend on the processing

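In PAP vs CHR and SCC vs CHR the number of Wnt genes that passed stayed within 1.5 times that reported (23 and 16) under each alternative run, except that without mouse 8 those higher in PAP numbered 5, against 8. Leaving out a mouse, or the carcinoma of mouse 10, gave 5 to 9 higher in PAP. SCC vs PAP depended on the fit, and shares of all genes at an unadjusted p under 0.05 were not computed there. The 2 genes that passed there became 0 in limma-voom (14 at an unadjusted p under 0.05) and 0 with the 2 groups only (13 at an unadjusted p under 0.05), where 0 of all genes passed too. With log2 of the recovered count plus 1 they were 2 higher and 0 lower. With the replicate block, which pairs samples of a mouse, they were 4, of which 3 higher (8.16%, compared with 9.85% of all genes). Without the papilloma of mouse 2 there were 6 (5 higher), and without the carcinoma of mouse 10 there were 13 (11 higher and 2 lower), while all genes went from 5.58% to 7.66% and 16.9%. Without the papilloma of mouse 10 there were 0, as over all genes. These 3 were chosen after seeing the data. Leaving out each mouse gave 0 to 13 in all, 0 to 10 higher and 0 to 3 lower, and 13 came from leaving out mouse 10. The 2 further pathway genes became 0 in limma-voom, 0 with the 2 groups only, 1 with log2 of the recovered count plus 1, 5 with the replicate block, 4 without the papilloma of mouse 2, 12 without the carcinoma and 0 without the papilloma of mouse 10, and 0 to 13 when leaving out each mouse. Late progression genes were 1 with an adjusted p and 1 to 7 when leaving out each mouse, and stepwise genes 0 to 1. The shares of all genes in these progression fits were not computed. The cause of these shifts was not tested. No named gene that passed a test reversed its direction under any alternative run. Besides the calls named in the report, the block changed none among the Wnt genes.

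The score compresses low counts, and genes under about 10 reads per library are imprecise at this depth.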
